A study of Zea mays with 3 samples.

Results

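The nitrate and nitrite reductase genes of maize were followed in roots of the Urea+NBPT treatment. They are 6 genes listed by identifier, out of 39219 genes on the array, and all their transcripts and probes were taken. The 6 genes have 10 transcripts of 59756 and 24 probes of 139000. The reference gene table of the B73 assembly Zm-B73-REFERENCE-NAM-5.0 names 3 of them, GRMZM2G568636 as NNR1 (also NR1), GRMZM5G878558 as NAR (also NR) and GRMZM2G079381 as NIR. GRMZM2G428027, GRMZM2G076723 and GRMZM2G102959 belong to the list but have no annotation in the tables used here, so they are given by identifier and are not assigned to nitrate or nitrite reductase.

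Nitrate reductase is a cytosolic enzyme that reduces nitrate to nitrite, with a molybdenum cofactor, heme and FAD passing electrons from NADH or NADPH. Nitrite reductase is a siroheme enzyme of the plastid that reduces nitrite to ammonium with electrons from ferredoxin, and the ammonium then enters glutamine and glutamate. In plant roots the genes of both enzymes are known to respond to nitrate, and nitrite that is not reduced is toxic to the cell.

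The samples were 3 replicates of 1 group. Plants of PR33T56, which the labels call a hybrid and the paper an inbred line, were 5 days old when they were moved for 8 h to a solution with 0.5 mM urea as the nitrogen source and 0.897 μM NBPT, an inhibitor of the enzyme urease. The solution as listed in the labels held no nitrate or ammonium salt. Each replicate was a pool of the roots of 6 plants, from an experiment of its own, and was hybridized to 1 array of the same slide with Cy3 label. Roots grown with urea alone were not analysed here, so there is no comparison between treatments, and each value below is set against the random control probes of its own array or against the other replicates. In RNA of whole roots, a change in the number of cells that express a gene and a change in the RNA per cell cannot be told apart.

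The array was designed on B73 transcripts and carries 1663 random control probes, whose sequences are not those of maize transcripts. Their median intensity was 73.3, 69.6 and 70.4 in replicates 1, 2 and 3, and their 95th percentile was 285, 299 and 285. On the normalized log2 scale this percentile was 8.24, 8.30 and 8.24, and a transcript was called detected when its level lay above it in all 3 arrays. Levels correlated across transcripts at 0.980 between replicates 1 and 2, 0.990 between 1 and 3 and 0.978 between 2 and 3, where transcripts are not independent replicates. Of the tissue markers, all 5 transcripts of the root list were detected, those of rtcs and rth3, named for mutants without certain roots and without root hairs, and of GRMZM2G099056, which the reference does not annotate. Of the green leaf list 5 of 9 were detected, those of PEPC1, NADP-ME and PPDK, enzymes of C4 photosynthesis that also occur outside leaves. The 4 transcripts of rbcS, the small subunit of Rubisco, lay above the control percentile in no array. Over the array 62.6% of all transcripts were detected, and replicate 2 was the highest in 31.7% of those. It was the highest in 0 of the 5 detected leaf transcripts and in 2 of the 5 root transcripts. In 2 of the 9 leaf transcripts replicate 1 was more than 1 above the others on the log2 scale, against 0.228% of all transcripts. Both are of PPDK, with levels of 14.57, 13.41 and 13.57, and of 14.41, 13.36 and 13.36.

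Of the 10 transcripts of the reductase genes 9 were detected, against 62.6% of all transcripts of the array. By limma, with a one-sided test of the level over the control percentile and p-values adjusted over all 59756 transcripts, 8 of the 10 passed, against 60.8% of all transcripts. Of the 24 probes 21 lay above the control percentile in all 3 arrays, against 57.5% of all probes, and the other 3 lay above it in none. Those 21 probes were brighter than at least 99.7% of the random control probes in every array. NNR1, NAR, NIR and GRMZM2G102959 thus had every probe above the controls, while GRMZM2G428027 had 1 probe of 2 and GRMZM2G076723 had 1 of 3.

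**Figure D1:**
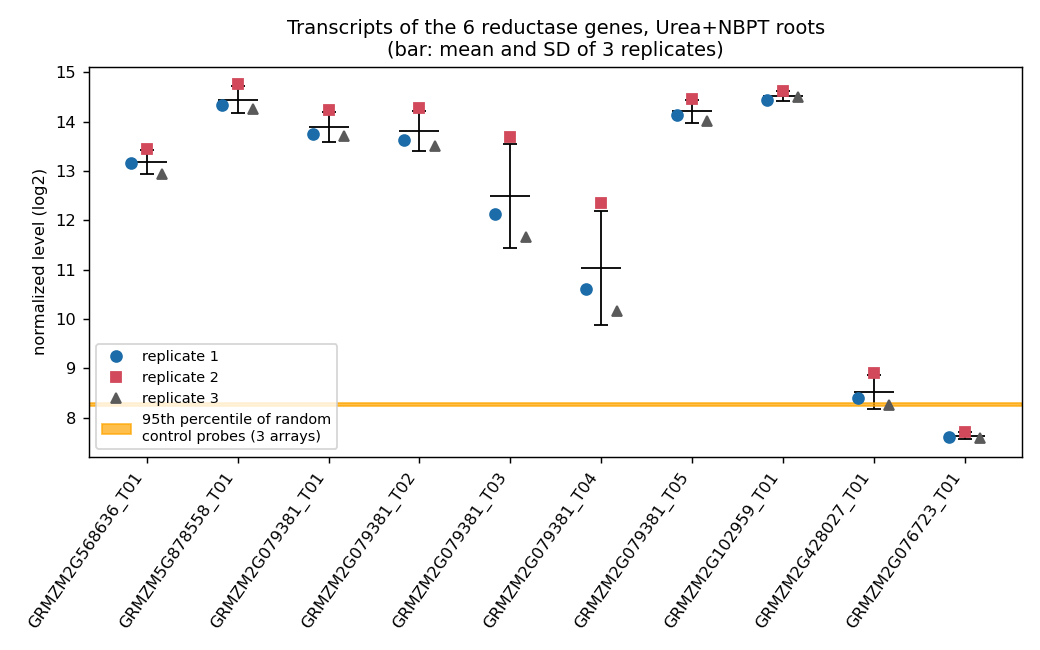
Normalized log2 level of each transcript of the 6 genes in replicates 1, 2 and 3, with the mean and SD (n = 3) as black bars and the range of the arrays' control percentile as an orange band. Replicate 2 is the highest point in all 10 transcripts and stands farthest from the others in GRMZM2G079381_T03 and GRMZM2G079381_T04. Heights should be read within a transcript only, since each probe binds with its own strength.

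NNR1 (GRMZM2G568636_T01), a nitrate reductase gene, had levels of 13.17, 13.44 and 12.94 in replicates 1, 2 and 3. It lay 4.92 ± 0.10 (SE from limma, n = 3) above the control percentile on the log2 scale (adjusted p = 2.89e-07). All 3 replicates were far above the controls, and replicate 2 was the highest. The probe at position 2217 of the transcript had deposited intensities of 6838, 9543 and 5803, and the probe at position 2921 had 12299, 12900 and 10533. Replicate 2 therefore stood 1.51-fold above the geometric mean of the others at the upstream probe and 1.13-fold at the downstream probe, as computed on the normalized scale. Positions are counted along each transcript as the array files give them.

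NAR (GRMZM5G878558_T01), the other gene that the reference names as a nitrate reductase, had levels of 14.33, 14.75 and 14.25. It lay 6.18 ± 0.10 (SE, n = 3) above the control percentile (limma, adjusted p = 1.51e-07). Replicate 2 was again the highest, and the other replicates differed little. At position 1663 the intensities were 22234, 36232 and 21499. At position 2724 they were 18958, 21061 and 17582. The excess of replicate 2 over the others was 1.66-fold at the upstream probe and 1.15-fold at the downstream probe, in the same direction along the transcript as in NNR1.

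The nitrite reductase gene NIR (GRMZM2G079381) is represented by 5 transcripts with 12 probes, and each probe belongs to 1 transcript on the array. Probe sequences were not used here, so it was not determined which probes can also bind the other transcripts of the gene. All 5 transcripts were detected, and all 5 passed the limma test. A pair of them, GRMZM2G079381_T03 and GRMZM2G079381_T04, had the widest spread between replicates, with ranges of 2.01 and 2.19. GRMZM2G079381_T01, GRMZM2G079381_T02 and GRMZM2G079381_T05 had narrower ranges of 0.54, 0.75 and 0.44. These were still above the median range of all detected transcripts, 0.33.

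GRMZM2G079381_T04 had levels of 10.61, 12.35 and 10.16, with a mean of 11.04 ± 1.15 (SD, n = 3). The excess of replicate 2 over the other replicates was 1.96 on the log2 scale, which is 3.89-fold. Replicates 1 and 3 were close to each other by comparison. Without replicate 2 the mean level was 10.31. This transcript lay 2.78 ± 0.42 (SE, n = 3) above the control percentile (limma, adjusted p = 0.00105). It is also the nitrite reductase transcript for which the study lists primers for real-time RT-PCR. They are printed here in lower case, 5′ to 3′, because among the members the replicates differ most in this transcript. Transcript sequences were not used here, so it was not determined whether the primers also amplify other transcripts of the gene.
GRMZM2G079381_T04 forward primer: cacctggccgacgtctac
GRMZM2G079381_T04 reverse primer: ctcctcatcctcctccctct

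All 3 probes of GRMZM2G079381_T04 carried the difference. At position 556 the intensities were 2380, 7354 and 1828 in replicates 1, 2 and 3. At position 702 they were 1446, 5589 and 1050, and at position 730 they were 1549, 5189 and 1009. Replicate 2 was 3.09 to 3.87 times replicate 1 and 4.02 to 5.32 times replicate 3. The probes at positions 702 and 730 lie close together and may share sequence. Within 10 spots in each direction, the median over the neighbouring probes of replicate 2 minus the others was -0.01 around the probe at position 556, 0.27 at position 702 and -0.18 at position 730.

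GRMZM2G079381_T03 showed the same order of replicates, with levels of 12.13, 13.68 and 11.67 and a mean of 12.49 ± 1.06 (SD, n = 3). The excess of replicate 2 was 1.78 on the log2 scale, which is 3.44-fold. Without replicate 2 the mean level was 11.90. Its probes at positions 585, 634 and 651 had 4543, 2960 and 4599 in replicate 1, and 13346, 9896 and 13113 in replicate 2. In replicate 3 they had 3291, 2428 and 3146. These positions lie within 66 bases of each other, so the probes may share sequence and do not measure the transcript independently. Around the probes at positions 585, 634 and 651 the median over neighbouring probes of replicate 2 minus the others was 0.22, 0.14 and 0.16. In all 6 probes of the pair replicate 3 was the lowest, with replicate 1 at 1.22 to 1.54 times its intensity.

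**Figure D2:**
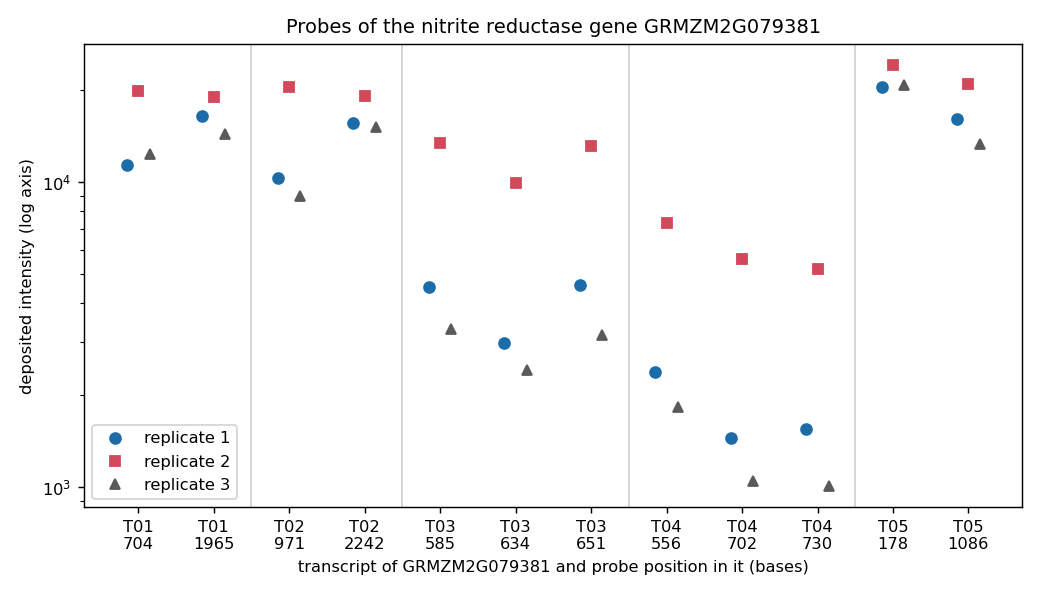
Deposited intensity, on a log axis, of the 12 probes of the nitrite reductase gene GRMZM2G079381 in replicates 1, 2 and 3, grouped by transcript and ordered by position in it. In the 6 probes of T03 and T04 replicate 2 is 3.44 to 4.49 times the geometric mean of the others, and in the 6 probes of T01, T02 and T05 it is 1.17 to 2.11 times that mean.

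The other nitrite reductase transcripts differed less between replicates. GRMZM2G079381_T01 had levels of 13.74, 14.24 and 13.70. GRMZM2G079381_T02 had 13.63, 14.27 and 13.51, and GRMZM2G079381_T05 had 14.14, 14.45 and 14.02. Replicate 2 was the highest in each of them, by 0.52, 0.69 and 0.37 over the mean of the others. Among their probes, the one at position 971 of GRMZM2G079381_T02 stood out, with 10314, 20370 and 9015, a 2.11-fold excess of replicate 2. The second probe of that transcript, at position 2242, had 15597, 19018 and 15103, a 1.24-fold excess. In GRMZM2G079381_T01 the excess was 1.67-fold at position 704 and 1.24-fold at position 1965. In GRMZM2G079381_T05 the order was the other way round, with 1.17-fold at position 178 and 1.43-fold at position 1086. The size of the excess in replicate 2 thus differed between the probes of the gene.

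GRMZM2G102959_T01 had the narrowest spread among the detected members, with levels of 14.43, 14.63 and 14.49 (SD 0.10, n = 3). It lay 6.26 ± 0.06 (SE, n = 3) above the control percentile (limma, adjusted p = 9.24e-08). At position 950 its intensities were 20697, 25324 and 23001, at position 1481 they were 2319, 3014 and 2320, and at position 1975 they were 29371, 30697 and 30647. Replicate 2 was the highest at all 3 probes, by 0.03 to 0.38 over the others on the log2 scale. None of its 3 probes reached a 2-fold difference between replicates.

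GRMZM2G428027_T01 and GRMZM2G076723_T01 were the members whose calls changed with the processing. GRMZM2G428027_T01 had levels of 8.40, 8.91 and 8.26, which lie above the control percentile in each array but only by 0.26 ± 0.15 (SE, n = 3), and it did not pass the limma test (adjusted p = 0.116). Its probe at position 2329 had intensities of 1313, 1783 and 1136, brighter than 99.8% of the random control probes in each array. The probe at position 3041 had 68.7, 111 and 64.5, close to the median of the controls in replicates 1 and 3. The transcript was no longer detected with the 99th percentile of the controls as threshold, without background correction, or with a normexp offset of 16.

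GRMZM2G076723_T01 had levels of 7.61, 7.71 and 7.59 and lay above the control percentile in no array. Its probe at position 2456 was bright, with 6386, 6840 and 6285, above 100% of the random control probes in each array. The probes at positions 1409 and 2002 had 215, 193 and 135, and 121, 197 and 147, in the range of the controls. Median polish followed these dim probes. With the mean of the probe values in place of median polish the level was 9.23 and the transcript was detected (limma, adjusted p = 0.000212), and with probes that passed the controls in no array left out it was 12.67. The bright probe thus gave nearly the same value in the 3 arrays, while the probes of the gene differed on whether the transcript lay above the controls.

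Across the members replicate 2 was the highest of the 3 arrays in 10 of 10 transcripts, and in 9 of the 9 detected ones, against 31.7% of all detected transcripts. It was the highest in all 21 probes that lay above the controls, against 33.6% of all such probes. Replicate 3 was the lowest in 16 of these 21 probes, against 29.2% of all such probes. These shares are not alike, because with replicate 2 the highest in all 21 only replicates 1 and 3 could be the lowest. The probes come from the same 3 RNA pools, and 12 of the 24 belong to 1 gene, so these counts are not independent observations. Replicate 2 was singled out because an earlier look at these same data had found it high in a nitrite reductase transcript. The counts for replicate 2 are therefore a description and not a test. A difference of more than 1 on the log2 scale, which is 2-fold, was reached by fewer. The range of the 3 replicates exceeded this in 2 of the 10 transcripts, both detected, against 5.02% of all transcripts and 4.05% of the detected ones, and in 0 of 10 when replicate 2 was left out. These 2 transcripts, GRMZM2G079381_T03 and GRMZM2G079381_T04, were also those in which replicate 2 exceeded the others by more than 1, against 2.26% of all transcripts and 1.81% of the detected ones. Replicates 1 and 3 did so in 0 of the 10, against 0.228% and 0.452% of all transcripts.

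Replicate 2 stood apart least often in the brightest probes, without a steady trend over the dimmer ones. Over all probes above the controls, replicate 2 exceeded the others by more than 1 in 2.5%. When these probes were split by brightness into 4 classes of equal size, the share was 2.96% in the dimmest class, then 4.06% and 2.48%, and 0.496% in the brightest. Of the 21 member probes 13 fell into the brightest class, where 1 showed such an excess, the probe of GRMZM2G079381_T02 at position 971. Of the 8 in the middle classes 6 did, and these are the 6 probes of GRMZM2G079381_T03 and GRMZM2G079381_T04. The other 2 are probes of GRMZM2G428027_T01 and GRMZM2G102959_T01. The part of brightness in the difference between the nitrite reductase transcripts was not tested.

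The place of a probe along its transcript was also set beside the excess of replicate 2, in the members and in all transcripts. In 8 member transcripts, most of them of NIR, at least 2 probes lay above the controls. In 6 of them the deviation of replicate 2 from the others was higher at the most upstream such probe than at the most downstream. This is a share of 75%, against 68.1% of all transcripts with such probes. The 2 shares are not alike, since the probes lay a median of 966.5 bases apart in the members and 589 in all transcripts. One of the 6 is GRMZM2G079381_T03, whose difference rounded to 0.00 over 66 bases. The exceptions were GRMZM2G079381_T04 and GRMZM2G079381_T05. In the 4 transcripts whose probes lay 1000 or more bases apart, namely GRMZM2G079381_T01, GRMZM2G079381_T02, GRMZM2G102959_T01 and NAR, the deviation was higher upstream in all 4. The differences were 0.43, 0.77, 0.18 and 0.52 on the log2 scale. Over all transcripts with probes that far apart the share was 86.6%. NNR1, with its probes 704 bases apart, had a difference of 0.42.

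**Figure D3:**
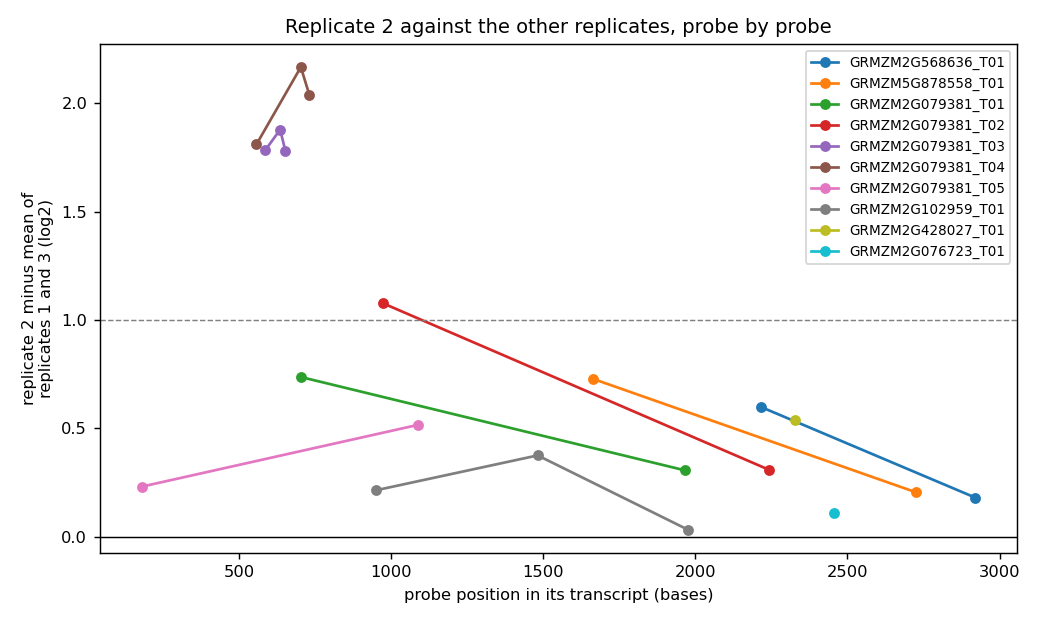
Replicate 2 minus the mean of replicates 1 and 3, on the log2 scale, for the 21 member probes above the controls, against the position of the probe in its transcript in bases. Lines join probes of a transcript, and the dashed line marks a difference of 1. All 21 values are above 0, those of NNR1, NAR, GRMZM2G079381_T01 and GRMZM2G079381_T02 are lower at the downstream probe, and those of GRMZM2G079381_T03 and GRMZM2G079381_T04 lie between 1.78 and 2.17.

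A slope of replicate 2 along the transcript was present over the whole array. Of 29227 transcripts with at least 2 such probes, replicate 2 deviated more at the upstream probe in 68.1%, replicate 1 in 33.5% and replicate 3 in 39.1%. The share for replicate 2 was 51.7% where the probes were under 250 bases apart, 58.6% from 250 to under 500 bases, 73.7% from 500 to under 1000 bases and 86.6% at 1000 or more bases. In the last class the median deviation of replicate 2 was 0.23 at the upstream probe and -0.17 at the downstream probe. For NAR the deviations were 0.73 and 0.21, for GRMZM2G079381_T02 they were 1.08 and 0.31, and for GRMZM2G079381_T01 they were 0.74 and 0.31, so both probes of these 3 transcripts stood above the medians of the array. GRMZM2G102959_T01, in the same class, had 0.21 at the upstream probe, below the median, and 0.03 at the downstream probe, above it. A slope of this kind is among the signs by which RNA integrity is judged on arrays, and its part in the levels of the reductase genes was not tested. The probes of GRMZM2G079381_T03 lie within 66 bases and those of GRMZM2G079381_T04 within 174 bases, so a slope cannot be read from them. All 6 had an excess of more than 1, at positions from 556 to 730. Their distance from the downstream end of the transcript was not determined. The part of the slope in their excess was not tested.

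**Figure D4:**
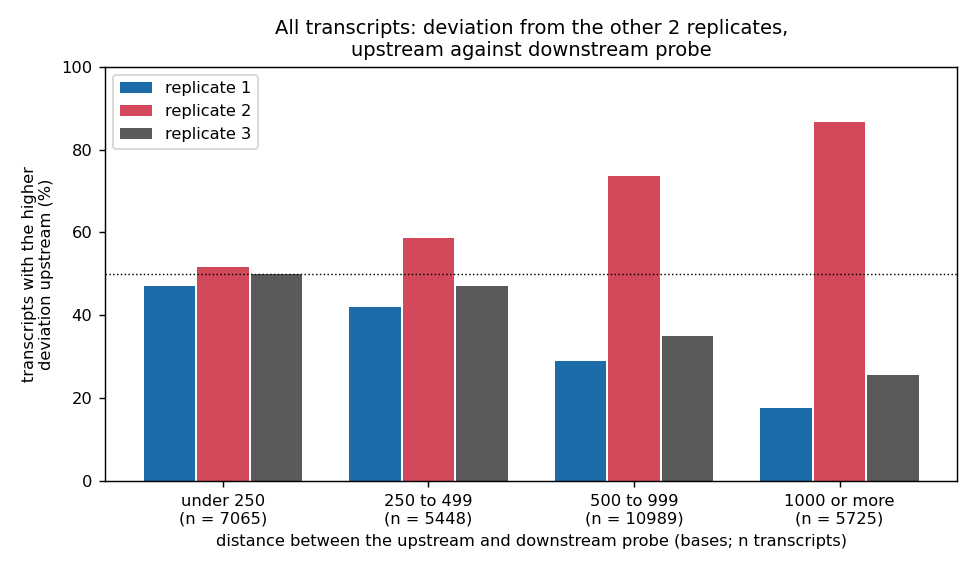
Percent of all transcripts with at least 2 probes above the controls in which the deviation of a replicate from the other 2 was higher at the upstream than at the downstream probe, by the distance between those probes in bases. The bars of replicate 2 run from 51.7% under 250 bases to 86.6% at 1000 or more bases, and the dotted line marks 50%.

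Nitrate reaches the reductases through transporters of the plasma membrane. Of 7 listed genes of nitrate transport, with 7 transcripts, 6 were detected, against 62.6% of all transcripts. Replicate 2 was the highest in all 6, where it was in 31.7% of all detected transcripts. The identifier of nrt2.1 is shared by 2 genes of the reference. The high-affinity transporter genes nrt2.1 (GRMZM2G010280_T01) and nrt2.2 (GRMZM2G010251_T01) had levels of 13.37, 13.85 and 13.55, and of 13.79, 14.30 and 14.13. NAR2.1 (GRMZM2G179294_T01), named for the partner protein of these transporters, had 13.99, 14.44 and 14.21. NAR2.2 (GRMZM2G163494_T01) had 6.75, 6.50 and 6.83 and lay above the controls in no array. It is named as the undetected transcript of the list, chosen after its values were seen. The median of replicate 2 minus the others was 0.34 over the 7 transcripts and 0.49 over the 10 reductase transcripts, against -0.03 over all transcripts. GRMZM2G455124_T01, an unannotated member of this list, had the widest spread, with 10.89, 11.16 and 9.77. In it replicate 3 was the low one. By keyword in the reference, the transporter transcript GRMZM5G811593_T01 (NRT1.2) was detected, with 10.74, 10.94 and 11.35, while GRMZM5G811593_T03 (NRT1.2) and GRMZM2G041631_T01 (Nrt1.1), also named after their values were seen, lay above the controls in no array.

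The ammonium made by nitrite reductase is built into glutamine by glutamine synthetase and into glutamate by glutamate synthase. Of 21 transcripts of 10 listed genes, 19 were detected, against 62.6% of all transcripts. Replicate 2 was the highest in 9 of these 19, against 31.7% of all detected transcripts. The median of replicate 2 minus the others was 0.03 over the 21 transcripts. The glutamine synthetase transcript GRMZM2G046601_T01 (gln3) had 11.64, 12.70 and 11.60, where replicate 2 lay 1.08 above the others. The glutamine synthetase transcript GRMZM2G024104_T02 (gln2) had 12.32, 11.89 and 12.60, where replicate 2 was the lowest. GRMZM2G036609_T02 (fgs1), of ferredoxin-dependent glutamate synthase, had 12.43, 12.49 and 12.52. Transcripts of this list thus lay on either side. Replicate 2 was more than 1 above the others in 1 of 21, against 2.26% of all transcripts.

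For the cofactors of the reductases, the keywords found 4 array genes under CNX, the symbol of molybdenum cofactor genes in plants. They found none for siroheme or ferredoxin. Of the 15 transcripts under CNX 14 were detected, against 62.6% of all transcripts. Replicate 2 was the highest in 5 of these 14, against 31.7% of all detected transcripts. The transcript GRMZM2G157836_T08 (CNX5) had 13.05, 13.07 and 13.07, the narrowest spread of the list, and GRMZM2G157836_T10 (CNX5) had 10.43, 11.30 and 10.06, the widest. One of the 4 array genes, GRMZM2G022180, is listed only as CNX, a symbol also used for calnexin, and its role was not settled. The counts above include it. GRMZM2G157836 and GRMZM5G881641 are paired with the same reference gene, LOC100191959. The keyword for NIN-like proteins, transcription factors that respond to nitrate, found NLP8 (GRMZM2G176655_T01), with 9.75, 8.63 and 9.32, where replicate 2 was the lowest.

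The transcripts whose replicates followed the pattern of the 2 widely spread nitrite reductase transcripts most closely were sought among 24034 detected transcripts of other genes that the reference lists. Likeness was the Euclidean distance between the 3 levels after subtracting their mean. Nearest to GRMZM2G079381_T03 was GRMZM2G364901_T02 (prpo2) at a distance of 0.014, with levels of 9.63, 11.17 and 9.16. Nearest to GRMZM2G079381_T04 was GRMZM2G442057_T01 (LOC103631495) at 0.081, with 9.74, 11.54 and 9.40. GRMZM2G143443_T04 (LOC100192572) was among the 3 nearest to both, at 0.101 and 0.091, with 8.86, 10.47 and 8.31. The remaining 2 of the nearest were GRMZM2G048335_T01 (LOC100217027), at 0.101 from GRMZM2G079381_T03, and GRMZM2G162286_T01 (LOC100381729), at 0.100 from GRMZM2G079381_T04. Over 3 arrays many transcripts can lie close by, and 39 lay within 0.3 of GRMZM2G079381_T03 and 27 within 0.3 of GRMZM2G079381_T04.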

How the data were processed

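Total RNA from 3 root pools was labelled with Cy3 and hybridized by the authors to NimbleGen maize arrays, and 1 intensity per probe was deposited, on a linear scale. Sorted intensities differed by at most 0.183% between arrays at any rank, so they appear already quantile normalized, over arrays not given, where raw intensities had been assumed. The submitters' processing notes name RMA with no version. The series value table differed from the array files in 0 probes. The reference table held 18690 of the 39219 array genes by synonym, and its coordinates were not used because the array follows another assembly.

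After normexp background correction (offset 50) and quantile normalization, the log2 probe values computed from the deposited intensities were combined by median polish (R 4.3.3, limma 3.58.1). These steps shift low levels most. Detection and limma's test (lmFit, eBayes with trend, one-sided, Benjamini-Hochberg over all transcripts) used the control percentile of each array. A deviation is a replicate minus the mean of the other 2. All member transcripts and tissue markers were to be described. Of each pathway list, up to 4 transcripts were to be named, with the widest and narrowest spread among those detected and annotated, and the 3 nearest patterns of members with a range over 1. This was not kept throughout. For nitrate transport more were named, among them GRMZM2G455124_T01, which is not annotated. GRMZM2G024104_T02 had neither the widest nor the narrowest spread of its list. Members and lists were chosen with earlier results of these data known. The splits by brightness, by distance between probes and by neighbouring spots were added after seeing the data. The steps were tested on simulated data. Simulated signals were set well above the controls, and no slope along the transcript was included. Dim transcripts and the slope of replicate 2 were therefore not covered. The number of arrays limits the precision. Alternatives changed the control percentile, the number of arrays needed, background correction, scaling, probe summary, source table, surface gradient, dim probes, variance trend and replicates.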

Additional observations from a re-analysis of the deposited data

How the results depend on the processing

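The count of detected reductase transcripts, 9, was 8 with the 99th percentile of the controls, without background correction and with a normexp offset of 16, where GRMZM2G428027_T01 was lost, and 10 with the mean of probes and with dim probes left out, where GRMZM2G076723_T01 was gained. The limma count, 8, was 9 with the mean of probes, where GRMZM2G076723_T01 passed, and 9 with a surface gradient removed, where GRMZM2G428027_T01 passed (adjusted p = 0.0424, against 0.0953 to 0.422 when 1 replicate was left out). It was 10 with dim probes left out, where both passed. Without replicate 1, 2 or 3 the counts stayed at 9 and 8. The count of probes above the controls was 21 under every alternative run. The number of transcripts with a range over 1 was 0 without replicate 2 and 2 under every other alternative, so leaving out 1 replicate gave 0 to 2. Over the alternatives of background correction, scaling, probe summary and surface gradient the excess of replicate 2 was 1.54 to 1.81 in GRMZM2G079381_T03 and at least 1.93 in GRMZM2G079381_T04, lowest with the surface gradient removed. With the gradient removed it also fell in GRMZM2G079381_T05 (0.37 to 0.26), GRMZM2G102959_T01 (0.17 to 0.05), GRMZM2G428027_T01 (0.58 to 0.33) and NAR (0.47 to 0.29). It rose in GRMZM2G076723_T01 (0.11 to 0.40), GRMZM2G079381_T02 (0.69 to 0.72) and NNR1 (0.39 to 0.42), and stayed at 0.52 in GRMZM2G079381_T01. How often replicate 2 was the highest was not counted under the alternatives. A mean level moved by more than its SD 10 times, of which 7 were in GRMZM2G076723_T01, with 7.38 to 12.67. The pathway lists had 38 to 44 detected transcripts, against 41, and the share of all transcripts detected was 47.4% to 86.9%, against 62.6%. This share was examined after seeing the data. No paired analysis was possible because there is only 1 group. Probe brightness over the controls limits GRMZM2G428027_T01 and GRMZM2G076723_T01.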
